A study of Homo sapiens with 6 samples.

Results

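SNHG12, SNHG1, GAS5, SNHG5, ZFAS1 and SNHG16 are small nucleolar RNA (snoRNA) host genes whose spliced transcripts are treated as noncoding. The members here are splice junctions, each named by where its intron begins and ends, and a junction was counted when both ends lay inside the window of its gene on the transcribed strand. This gave 281 of the 780566 junctions in the 6 tables. Of these, 22 belonged to SNHG12, 61 to SNHG1, 111 to GAS5, 37 to SNHG5, 35 to ZFAS1 and 15 to SNHG16. Junctions were chosen by position, strand and a read count that placed them in at least 1 table, with no value of the genotype contrast. The genes themselves were selected on results of these data, with junction counts and shares in view. The level of a gene and its unannotated share are therefore given as descriptions without a test, and the tests of single junctions, adjusted over the whole tables, are not independent support for the choice of genes. All 281 junctions had GT-AG ends. The tables marked 77 of them as annotated and 204 as unannotated, and the unannotated ones carried 0.572% of the 556155 uniquely mapped reads. Most were rare, with 178 junctions under 10 reads over all libraries, and 101 passed the read filters of at least 1 test. Coordinates give the intron, both end bases included, in hg19, the build named in the submitters' processing notes.

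The libraries were made from poly(A)+ RNA of K562, a human chronic myeloid leukaemia cell line with erythroid features. The control group was 3 libraries in which wild type U2AF1 had been knocked in, and the other group was 3 libraries carrying U2AF1 S34F. U2AF1 is the small subunit of the factor that contacts the AG at the end of an intron, and S34F is a substitution found in myelodysplastic syndromes. The labels do not say whether a genotype was a single clone, how many alleles were altered, or whether replicates were separate cultures, so p-values measure the spread between these libraries, which may be technical. Depth was 19380519 to 25429944 unique spliced reads in wild type against 18074706 to 39279169 in S34F, the highest being S34F replicate 3. Neither the S34F allele nor K562 marker genes were analysed here.

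A snoRNA host gene carries snoRNAs inside its introns. The intron is cut out, opened and trimmed until the snoRNA is left, and the snoRNA then guides chemical modification of ribosomal and other RNA. The joined exons form a long noncoding RNA, and many such transcripts are degraded by nonsense-mediated decay during translation. Because snoRNAs are not polyadenylated, the libraries report on the joined exons and not on the snoRNAs.

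Host genes of this kind often start at a C followed by a run of pyrimidines, the 5′ terminal oligopyrimidine motif shared with ribosomal protein genes. The start of each gene is shown to let this frequent feature be seen letter by letter. The 30 bases from 5 before to 25 from the annotated start, from RefSeq on GRCh38.p14, are printed 5′ to 3′ with the pyrimidine run that begins with C at the first transcribed base in capitals. These coordinates are of another build than the junctions and were not converted.
SNHG12, chr1:28581849-28581878, minus strand: agcgcCCTTTCTCCCCgccgcattcccggt
SNHG5, chr6:85678709-85678738, minus strand: tcggtCTTTTacgtcggccttcgcgagcgt
ZFAS1, chr20:49278637-49278666, plus strand: tcgttCTTTCgcgtctgcggtgcccggagt
SNHG1, chr11:62855861-62855890, minus strand: tcgttCTCatttttctactgctcgtggtaa
GAS5, chr1:173869021-173869050, minus strand: aattcagatgtgtttattttggagcctaca
SNHG16, chr17:76557759-76557788, plus strand: gtctcgcgttcttttcgaggtcggccgcgt

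SNHG12, SNHG5 and ZFAS1 held a C followed by at least 4 pyrimidines at the annotated start, 3 of 6 genes against 4.07% of 35116 RefSeq promoters. SNHG1 had only CTC there. GAS5 and SNHG16 had no C at the base RefSeq calls the start, which for a gene with several start sites depends on the transcript RefSeq chose. The same 3 genes held the letters TATATAA between 17 and 50 bases before the start, against 0.658% of promoters. On the other strand these letters were in 1 of 6 genes and 0.236% of promoters. That gene was ZFAS1, where they overlap the TATATAA already counted and are not a separate place. The windows are printed with TATATAA in capitals.
SNHG12, chr1:28581886-28581915, minus strand: cgaggggcggccTATATAAgctcttgctcg
SNHG5, chr6:85678746-85678775, minus strand: tccgggaggcTATATAAggagctactggct
ZFAS1, chr20:49278600-49278629, plus strand: ccatctttggtTATATAAgggaggttcagg

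The first 50 bases were also searched for letters that often begin an intron. Such letters do not by themselves show that an intron begins there. GTAAGT or GTGAGT, the usual letters at the start of an intron, occurred in the first 50 bases of SNHG1 and SNHG5, 2 of 6 genes against 2.42% of promoters. On the other strand they were in 1 of 6 genes and 1.45% of promoters. Both are printed with the motif in capitals, and for SNHG5 a further GT that lies 4 bases upstream is also in capitals.
SNHG1, chr11:62855849-62855878, minus strand: ttctactgctcgtgGTAAGTggcttcgtgg
SNHG5, chr6:85678684-85678713, minus strand: agcgtctgggcgggtgGTagGTGAGTgggt
A pair of 5′ splice sites 4 nt apart was also read in the SNHG5 junctions, but the builds differ and the pairs were not matched.

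Junction reads were summed per gene and divided by the library's unique spliced reads to give RPM, reads per 1000000 unique spliced reads. Genes with more introns collect more such reads, so genes were compared by their single most-read junction. SNHG5 led, with 250.6 ± 65.7 RPM in wild type against 287.1 ± 58.4 in S34F at that junction (SD, n = 3 in each group here and in the next sentences). GAS5, studied as a growth-arrest transcript that can bind the glucocorticoid receptor, had 222.5 ± 59.7 and 200.8 ± 59.1. ZFAS1 had 122.0 ± 26.7 and 126.2 ± 45.9, and SNHG1 had 60.9 ± 17.2 and 43.5 ± 10.4. SNHG16 had 23.4 ± 0.196 and 25.1 ± 3.54, and SNHG12 was lowest with 5.80 ± 1.23 and 5.80 ± 2.60. SNHG5 exceeded GAS5 in 5 of 6 libraries, and the ranges of SNHG5, GAS5 and ZFAS1 over libraries overlapped between neighbours. From ZFAS1 down to SNHG12 the ranges of neighbours did not overlap.

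**Figure D1:**
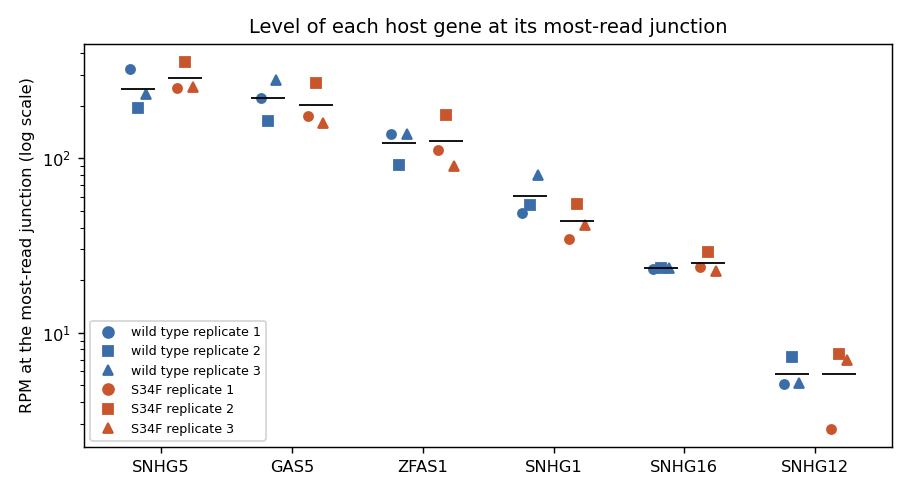
RPM at the most-read junction of each gene, on a log scale, with a marker per library (blue, wild type; orange, S34F) and a line at the group mean. SNHG5 and GAS5 lie highest and SNHG12 lowest, and within each gene the genotypes overlap.

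Summed over all junctions of a gene, the genotypes overlapped in each of the 6 genes. SNHG1 had 340.2, 354.3 and 547.3 RPM in wild type against 240.0, 379.1 and 278.7 in S34F. Its group means were 413.9 ± 115.7 and 299.3 ± 71.8 (SD, n = 3), with wild type replicate 3 well above the rest. SNHG12 had 19.0, 34.4 and 23.5 RPM against 14.5, 30.8 and 28.4, so libraries of the same genotype differed more than the group means. SNHG5 had means of 967 ± 256 and 1076 ± 235, GAS5 2071 ± 525 and 1907 ± 554, and ZFAS1 389 ± 76.6 and 392 ± 134. SNHG16 varied least, at 52.7 ± 1.64 and 54.0 ± 6.96. In RNA from whole cultures, fewer cells with a transcript and less transcript per cell cannot be told apart.

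Splicing was then followed as shares. The share of a junction among all reads that leave the same 5′ splice site measures the choice of acceptor, and its share among all reads that reach the same 3′ splice site measures the choice of donor. Each was tested with edgeR's quasi-likelihood test over all junctions of the tables, and a junction was called when the Benjamini-Hochberg adjusted p was under 0.05 and the group means differed by at least 10 percentage points. By acceptor choice 2 of 74 tested member junctions were called, where 2.11% of all tested junctions were, and by donor choice 1 of 77 was, where 0.934% of all were. All 3 calls lay in SNHG12, and they describe the skipping of 1 exon. SNHG12 hosts snoRNAs of the H/ACA and C/D classes. The junction chr1:28907159-28908101 joins the first well-read 5′ splice site of the gene to an acceptor beyond the next exon, which is 119 nt long (chr1:28907623-28907741), or 136 nt with an alternative donor. It had 11, 2 and 5 reads in wild type, of 96, 162 and 92 at its 5′ site, and 20, 23 and 48 in S34F, of 84, 110 and 233. Its share was 11.5, 1.23 and 5.43% in wild type against 23.8, 20.9 and 20.6% in S34F. All 3 S34F libraries lay above all wild type libraries, although wild type replicate 1 was well above wild type replicate 2. The share rose from 6.04% ± 5.14 (SD, n = 3) to 21.8% ± 1.77 (SD, n = 3) (log2 odds 2.28, SE 0.54, edgeR adjusted p = 0.0167).

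The junction into the exon, chr1:28907742-28908101, mirrored this at the same 5′ site, with 85.4, 97.5 and 89.1% in wild type against 72.6, 74.5 and 76.4% in S34F. Its share fell from 90.7% ± 6.21 (SD, n = 3) to 74.5% ± 1.89 (SD, n = 3) (log2 odds -1.89, SE 0.50, edgeR adjusted p = 0.0311). At its 3′ splice site the skipping junction held 12.4, 1.09 and 5.05% of reads in wild type against 23.8, 19.8 and 18.5% in S34F, a rise from 6.17% ± 5.72 (SD, n = 3) to 20.7% ± 2.75 (SD, n = 3) (log2 odds 2.23, SE 0.57, edgeR adjusted p = 0.0378). These are 3 views of 1 event that share reads. The event rests on few reads, and the calls were lost under some other settings. With DESeq2 the adjusted p was 0.145 for skipping and 0.224 for inclusion by acceptor choice and 0.119 by donor choice, and with limma it was 0.157, 0.192 and 0.217. Without wild type replicate 2 the skipping log2 odds were 1.56 with edgeR adjusted p = 0.118, and the adjusted p was 0.0716, 0.0763 and 0.115 without S34F replicate 1, 2 and 3. Over the 16 alternatives the adjusted p for skipping by acceptor choice ran from 0.000582 to 0.157 and was under 0.05 in 10. It was under 0.05 in 9 of 16 for inclusion and in 6 of 16 for skipping by donor choice.

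No other choice in SNHG12 passed. The skipped exon has donors 17 nt apart. The annotated junction chr1:28907159-28907622, from the upstream one, held 56.2, 71.2 and 73.7% of its 3′ site in wild type against 50, 50.9 and 56% in S34F, with means of 67% ± 9.49 (SD, n = 3) and 52.3% ± 3.24 (SD, n = 3) that missed the threshold (edgeR adjusted p = 0.238). The lowest wild type library and the highest S34F library were close. The reads at this 3′ site include those of the called skipping junction, so this fall is not independent of that call. The junction from the downstream one, chr1:28907159-28907605, held 31.5, 27.7 and 21.2% in wild type against 26.2, 29.3 and 25.5% in S34F, with overlap. Farther along, donors 30 nt apart at 28906423 and 28906453 shared an acceptor at means of 55.5% ± 2.65 (SD, n = 3) and 30.9% ± 1.7 (SD, n = 3) in wild type, against 59% ± 2.5 (SD, n = 3) and 30.1% ± 1.65 (SD, n = 3) in S34F. The unannotated junction chr1:28906100-28906194, with 62 reads, made up much of the remainder at 13.4, 13.2 and 9.84% in wild type against 10.9, 6.32 and 10.5% in S34F. The main junction into the exon that carries these donors, chr1:28906494-28907071, held 90.2, 97.6 and 94.6% of its 3′ site in wild type against 90.1, 92.8 and 87.2% in S34F (edgeR adjusted p = 0.341).

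**Figure D2:**
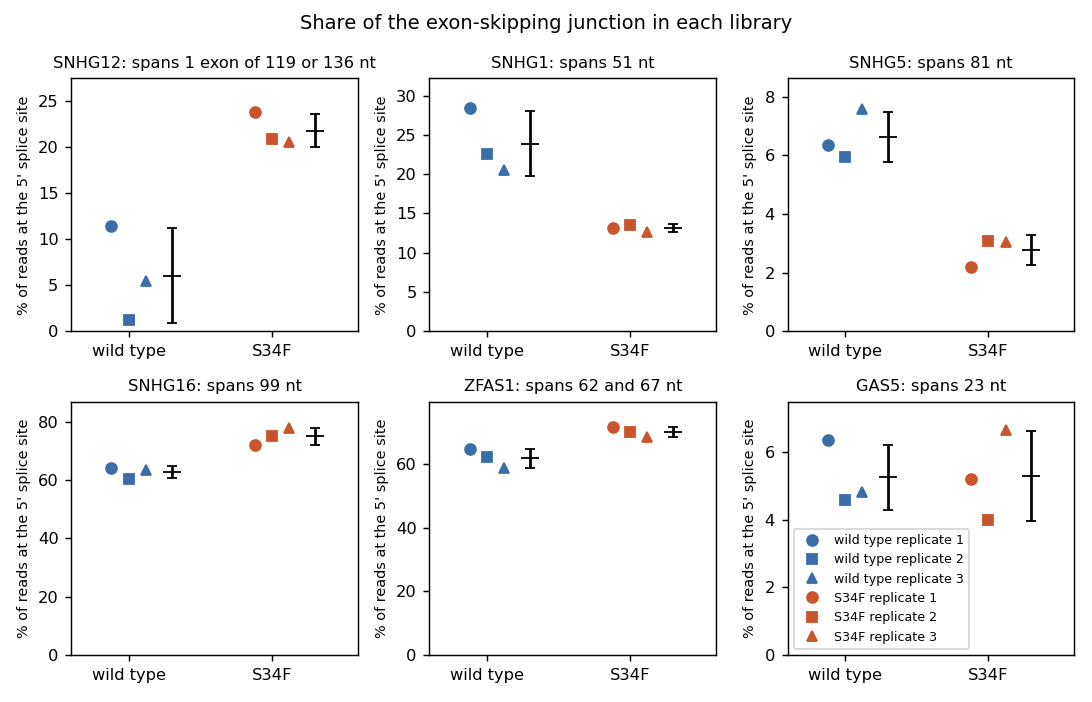
Share of 1 exon-skipping junction per gene, in percent of the reads at its 5′ splice site, with a marker per library and the mean ± SD (n = 3) beside each group. The 3 S34F libraries lie above the wild type libraries in SNHG12, SNHG16 and ZFAS1 and below them in SNHG1 and SNHG5, and the genotypes overlap in GAS5; the change was called in SNHG12 only.

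SNHG1 hosts several C/D snoRNAs, each in an intron of its own. The annotated junction chr11:62622024-62622604 skips an exon of 51 nt at chr11:62622360-62622410. It had 222, 158 and 183 reads in wild type of 780, 700 and 893 at its 5′ site, and 67, 85 and 121 in S34F of 509, 626 and 955. Its share was 28.5, 22.6 and 20.5% in wild type against 13.2, 13.6 and 12.7% in S34F. All S34F libraries were below all wild type libraries and close to each other. The means were 23.8% ± 4.13 (SD, n = 3) and 13.1% ± 0.455 (SD, n = 3), a difference past 10 points that missed the adjusted p threshold (log2 odds -1.04, SE 0.33, edgeR adjusted p = 0.0664). Over annotated junctions alone the adjusted p was 0.026, within a range of 0.026 to 0.565 over the 16 alternatives. Inclusion by chr11:62622411-62622604 held 71.4, 76.9 and 78.8% in wild type against 86.1, 86.3 and 86.9% in S34F (edgeR adjusted p = 0.0698). By donor choice the skipping junction held 25.8, 19.3 and 17.2% in wild type against 11.5, 12.7 and 11.3% in S34F (edgeR adjusted p = 0.14). The direction of this difference is opposite to that of the SNHG12 exon.

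A rare acceptor in SNHG1 gave the lowest adjusted p of the members in the tests of choice. It fell outside the rule for naming junctions and was chosen after its values were seen, as were its neighbours described with it. The annotated junction chr11:62620466-62620546 had 23, 22 and 84 reads in wild type against 4, 4 and 4 in S34F. Its share was 2.18, 1.76 and 5.91% in wild type against 0.539, 0.43 and 0.261% in S34F, with no overlap, and wild type replicate 3 held most of its reads. The means of 3.28% ± 2.28 (SD, n = 3) and 0.41% ± 0.14 (SD, n = 3) differed past the adjusted p threshold (log2 odds -3.0, SE 0.56, edgeR adjusted p = 0.00332) but by under 10 points, so the junction was not called. Without wild type replicate 3 the log2 odds were -2.35 with edgeR adjusted p = 0.0139, and over 16 alternatives the adjusted p ran from 0.000254 to 0.0933. With the unannotated junction chr11:62620312-62620448 it bounds an exon of 17 nt at chr11:62620449-62620465. That second junction had 4, 3 and 13 reads in wild type against 0, 0 and 0 in S34F. The junction across the exon, chr11:62620312-62620546, had 1005, 1206 and 1303 reads in wild type against 728, 903 and 1505 in S34F. The reads that competed at that 3′ site came from wild type alone, so only their counts are given here, with no test.

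At another exon of SNHG1 the genotypes overlapped. Skipping of an exon of 47 nt by chr11:62621306-62621990 held 12.7, 7.28 and 16.5% in wild type against 8.35, 9.27 and 9.68% in S34F, with wild type spread around S34F (edgeR adjusted p = 0.578). The 2 most-read unannotated junctions were chr11:62620131-62620282 with 38 reads and chr11:62622024-62622895 with 29. The latter had 3, 3 and 17 reads in wild type against 1, 3 and 2 in S34F, so wild type replicate 3 again held most.

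**Figure D3:**
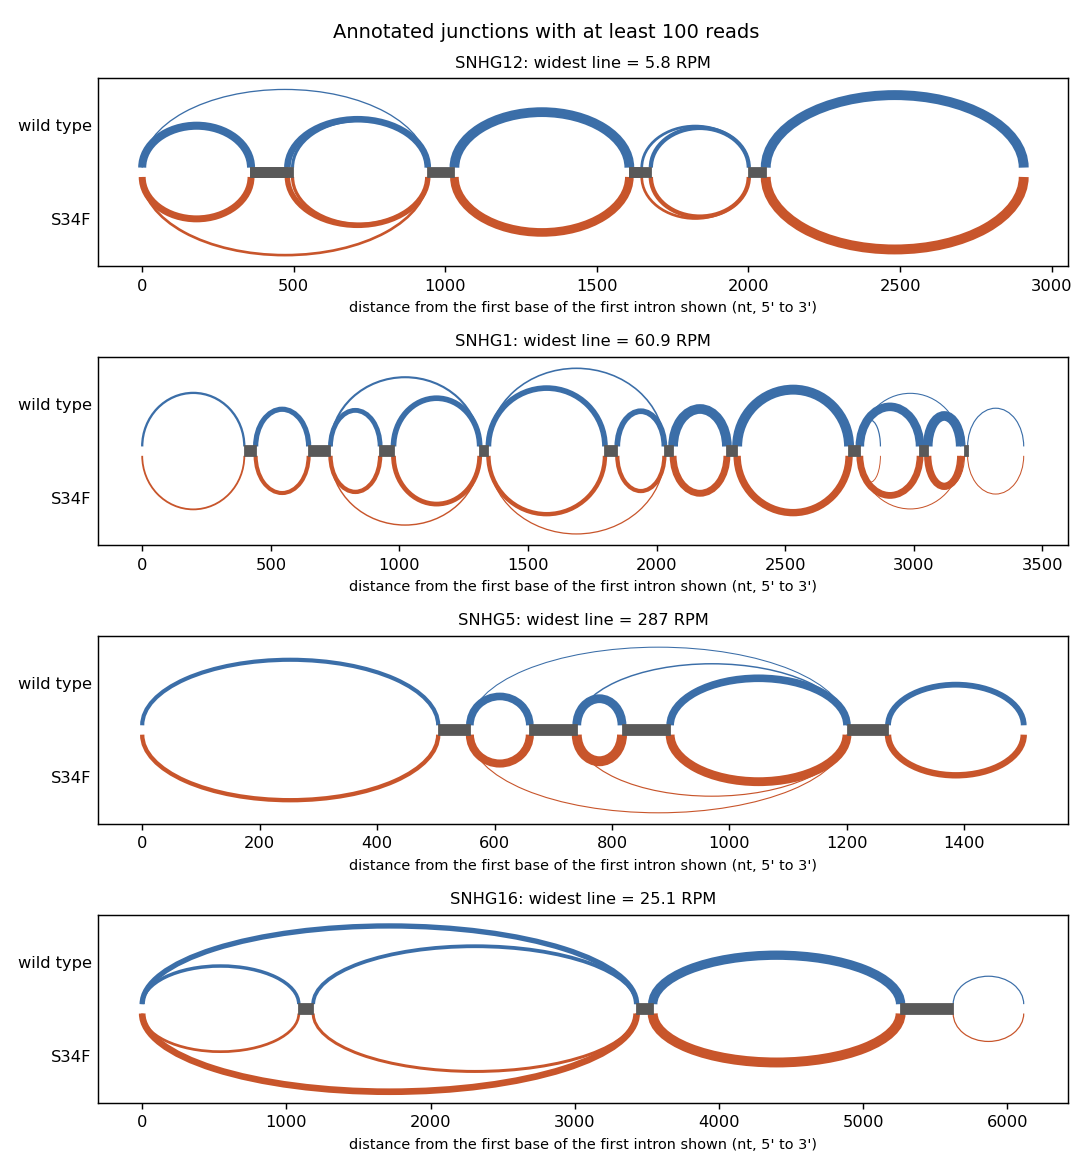
Annotated junctions with at least 100 reads in SNHG12, SNHG1, SNHG5 and SNHG16, drawn to scale by distance in nt from the first intron base shown, 5′ to 3′; grey blocks are exons between junctions and line width is mean RPM (upper arcs wild type, lower arcs S34F). Skipping junctions are among the longer arcs. That of SNHG12 is wider in S34F, and those of SNHG1 and of the 81 nt exon of SNHG5 are wider in wild type. The longer SNHG5 junction, which also skips the 79 nt exon, is wider in S34F.

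SNHG5, whose introns hold C/D snoRNAs, had the deepest sites. The annotated junction chr6:86387211-86387671 skips an exon of 81 nt at chr6:86387513-86387593. It had 563, 309 and 376 reads in wild type of 8848, 5207 and 4964 at its 5′ site, and 134, 206 and 316 in S34F of 6101, 6677 and 10403. Its share was 6.36, 5.93 and 7.57% in wild type against 2.2, 3.09 and 3.04% in S34F. The genotypes lay apart, with every S34F library at a lower share. The mean was 6.62% ± 0.851 (SD, n = 3) in wild type against 2.77% ± 0.5 (SD, n = 3) in S34F, which passed the adjusted p threshold (log2 odds -1.32, SE 0.31, edgeR adjusted p = 0.0143) but not the minimum difference. Without S34F replicate 1, 2 and 3 in turn the edgeR adjusted p was 0.0863, 0.0566 and 0.0850. By donor choice the share was 7.57% ± 0.936 (SD, n = 3) against 3.08% ± 0.515 (SD, n = 3) (log2 odds -1.37, SE 0.32, edgeR adjusted p = 0.0275). The inclusion junction chr6:86387594-86387671 held 92.9, 93.3 and 91.3% in wild type against 97.1, 96 and 96% in S34F, higher in every S34F library (log2 odds 1.10, SE 0.30, edgeR adjusted p = 0.0359). Over 16 alternatives the adjusted p for skipping was under 0.05 in 10 by acceptor choice, with a range of 0.00234 to 0.172, and in 9 by donor choice. As in SNHG1 and unlike SNHG12, the skipping share was lower in S34F.

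A longer junction in SNHG5, chr6:86387211-86387853, skips that exon and the 79 nt exon before it, and had 173, 47 and 111 reads in wild type against 138, 146 and 211 in S34F. The most-read unannotated junction was chr6:86387907-86388415 with 478 reads, whose donor lies 4 nt upstream of the annotated one. It held 2.72, 2.81 and 2.67% of its 3′ site in wild type against 3.28, 3.47 and 2.75% in S34F, with overlap (edgeR adjusted p = 0.812). Next was chr6:86387587-86387671 with 315 reads, whose acceptor lies 7 nt downstream of that of the inclusion junction. Its share was 0.61, 0.691 and 0.947% in wild type against 0.574, 0.794 and 0.865% in S34F (edgeR adjusted p = 0.988). The unannotated share of all SNHG5 reads was 0.690, 0.702 and 0.678% in wild type against 0.714, 0.793 and 0.742% in S34F. SNHG5 was the only one of the 6 genes in which that share did not overlap, and it was not tested. Over all junctions of the libraries the unannotated share was 1.25, 1.03 and 1.15% in wild type against 1.30, 1.24 and 1.38% in S34F. These whole-library shares overlapped narrowly, with a higher mean in S34F.

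SNHG16, another C/D snoRNA host, skipped an exon of 99 nt (chr17:74555027-74555125) in most reads at the 5′ site before it. The skipping junction chr17:74553940-74557369 had 310, 312 and 240 reads in wild type of 483, 517 and 378 at its 5′ site, and 335, 327 and 614 in S34F of 465, 434 and 788. Its share was 64.2, 60.3 and 63.5% in wild type against 72, 75.3 and 77.9% in S34F. Every S34F library was above every wild type library. The means were 62.7% ± 2.04 (SD, n = 3) and 75.1% ± 2.95 (SD, n = 3), and the difference passed 10 points without passing the adjusted p threshold (log2 odds 0.85, SE 0.33, edgeR adjusted p = 0.131). Inclusion by chr17:74553940-74555026 held 34.8, 38.7 and 36% in wild type against 26.9, 23 and 21.3% in S34F (edgeR adjusted p = 0.115). On the far side of the exon, chr17:74555126-74557369 held 39.3, 40.9 and 38% in wild type against 31.7, 26.2 and 22.1% in S34F of its 3′ site (edgeR adjusted p = 0.192). The most-read junction was chr17:74557481-74559200 with 3594 reads, and an unannotated donor 4 nt away from its own had 76 reads, with 2.32, 1.84 and 1.52% of the 3′ site in wild type against 2.62, 2.23 and 1.9% in S34F.

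ZFAS1 lies on the opposite strand next to the coding gene ZNFX1 and hosts C/D snoRNAs. Its junction chr20:47897108-47905581 skips an exon of 62 nt (chr20:47897440-47897501), and it also spans a rarely read exon of 67 nt. The skipping share was 64.8, 62.3 and 58.8% in wild type against 71.7, 70.3 and 68.7% in S34F. The genotypes lay apart, with S34F higher. The means were 62% ± 2.97 (SD, n = 3) and 70.2% ± 1.5 (SD, n = 3) (log2 odds 0.53, SE 0.30, edgeR adjusted p = 0.337), which passed neither threshold. Inclusion by chr20:47897108-47897439 held 35.2, 37.6 and 41.1% in wild type against 28.2, 29.5 and 31.1% in S34F (edgeR adjusted p = 0.329). From that exon to the last acceptor, chr20:47897502-47905581 held 29.3, 32.7 and 33.3% of its 3′ site in wild type against 23.2, 26.2 and 26.1% in S34F (edgeR adjusted p = 0.48).

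At the first donors of ZFAS1, and for the junction that bypasses all its middle exons, the genotypes overlapped. Donors 22 nt apart, at 47895254 and 47895276, held 87.6% ± 0.319 (SD, n = 3) and 12.3% ± 0.237 (SD, n = 3) of a shared 3′ site in wild type, and 87.7% ± 0.958 (SD, n = 3) and 12.2% ± 1.08 (SD, n = 3) in S34F (edgeR adjusted p = 0.987 and 0.978). That long junction, chr20:47895746-47905581, held 11, 12.7 and 12.1% of its 5′ site and 12.8, 10.3 and 13.9%, with overlap.

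GAS5 has a C/D snoRNA in nearly every intron, and it had the most junctions and reads of the 6 genes. Where at least 2 of its junctions each held 5% of a splice site, their shares overlapped between genotypes. Counting all its tested junctions, the genotypes did not overlap in 10 of 30 by acceptor choice, against 25.2% of all. By donor choice they did not overlap in 3 of 27, against 22.4% of all. The main alternative was between donors 39 nt apart. The annotated junction chr1:173834421-173834608 held 47.5, 51.9 and 53.1% of the 3′ site in wild type against 55, 56.1 and 50.1% in S34F, so S34F replicate 3 lay among the wild type libraries. The means were 50.8% ± 2.92 (SD, n = 3) and 53.8% ± 3.2 (SD, n = 3) (edgeR adjusted p = 0.844). The other donor, in chr1:173834421-173834647, took most of the remainder, 52.1, 47.7 and 46.6% in wild type against 44.7, 43.6 and 49.7% in S34F. Skipping of an exon of 23 nt (chr1:173833622-173833644) by chr1:173833443-173833812 held 6.36, 4.59 and 4.84% in wild type against 5.21, 4 and 6.67% in S34F, with means of 5.26% ± 0.959 (SD, n = 3) and 5.29% ± 1.34 (SD, n = 3) (edgeR adjusted p = 0.995).

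Among rare junctions of GAS5, the unannotated chr1:173833443-173834608 had 6, 5 and 29 reads in wild type against 2, 3 and 2 in S34F. It was named after its values were seen. Wild type replicate 3 held most of these reads, and S34F held 7 in all, so the junction met the read filter through wild type alone and is described with no test. Its share at the 5′ site was 0.518% ± 0.484 (SD, n = 3) and 0.092% ± 0.0249 (SD, n = 3). The 2 most-read unannotated junctions used acceptors close to annotated ones. For chr1:173833218-173833394, 4 nt away, 442 reads gave 1.75, 1.68 and 1.98% of the 5′ site in wild type against 1.65, 2.01 and 1.99% in S34F (edgeR adjusted p = 0.942). For chr1:173835720-173835898, 14 nt away, 266 reads gave 1.01, 0.962 and 1.04% in wild type against 0.879, 0.82 and 0.841% in S34F, with no overlap (edgeR adjusted p = 0.741).

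Over all 6 genes, 74 junctions entered the test of acceptor choice. The 2 calls compare with 1088 among the 51522 junctions of the tables. At the adjusted p alone 7 members passed, against 4.63% of all, and at an unadjusted p under 0.05 there were 22, against 19.9%. The genotypes did not overlap in 25 of the 74, against 25.2% of all, and the median log2 odds was 0.03 against 0.00 over all junctions. In the test of donor choice the single call compares with 451 among 48269 junctions. At the adjusted p alone 4 passed, against 2.04%, at an unadjusted p under 0.05 there were 16, against 17.3%, and 17 did not overlap, against 22.4%. Of the members past the adjusted p alone, 2 of the 7 and 2 of the 4 met the read filter through 1 genotype only, so those passes support nothing. By the full call rule, the shares of members called lie near those of the tables, and each event adds several junctions that share reads.

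Junction abundance asks whether a junction had more reads per library, whatever happened to its neighbours. It was tested with edgeR and TMM normalisation over 117298 junctions with a mean of at least 10 reads. Of these 0.217% were called at the adjusted p threshold, and 0 of the 69 members tested were called by edgeR. At an unadjusted edgeR p under 0.05 there were 9, against 13.9% of all. DESeq2 called 3, chr11:62620466-62620546 and chr11:62622024-62622604 in SNHG1 and chr6:86387211-86387671 in SNHG5, and limma called 0. Of all junctions DESeq2 called 1.32%. The junction chr11:62620466-62620546 had 129 reads in wild type against 12 in S34F. It met the filter of a mean of 10 reads through wild type alone, so its DESeq2 call supports nothing. The genotypes did not overlap in 11 members, 8 of them lower in S34F, against 18.0% of all in either direction and 8.63% lower. No claim about the genes as a set rests on these counts.

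All 16 tested junctions of SNHG1 had negative log2 fold changes, from -3.70 to -0.20 with a median of -0.55, against 0.01 over all junctions, and none was called (lowest edgeR adjusted p = 0.0808). The value of -3.70 was that of chr11:62620466-62620546, which met the read filter through wild type alone. All 16 were negative with DESeq2 size factors and with total spliced reads as the scale, and 14 were negative without wild type replicate 3, where the median was -0.27. By RPM, 4 of the 16 did not overlap between genotypes, all of them lower in S34F. Of all tested junctions 18.0% did not overlap in either direction, and 8.63% were lower. The 16 junctions of SNHG1 share transcripts, and are not independent. GAS5 had 18 of 19 negative with a median of -0.11, and without wild type replicate 3 it had 6 with a median of 0.08, while SNHG5 had 1 of 10 negative with a median of 0.17. The lone negative one in SNHG5 was the skipping junction (log2 fold change -1.12, SE 0.32, edgeR adjusted p = 0.192). In SNHG12 the skipping junction lay the other way (log2 fold change 2.07, SE 0.52, edgeR adjusted p = 0.123), and the other 8 lay between -0.55 and 0.06. That skipping junction had 18 reads in wild type against 91 in S34F. It met the abundance filter, a mean of 10 reads over all 6 libraries, through S34F alone, so its abundance result supports nothing. In ZFAS1 and SNHG16 the medians were 0.05 and 0.08, with 2 negative of 9 and 2 of 6.

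**Figure D4:**
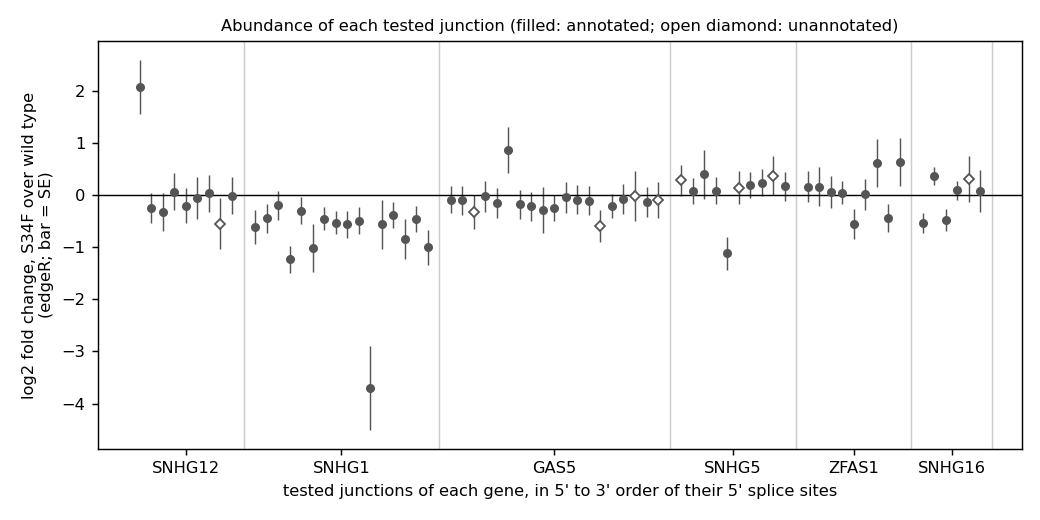
Log2 fold change of reads, S34F over wild type, for the 69 tested junctions, in 5′ to 3′ order within each gene; bars are SE and open diamonds are unannotated junctions. SNHG1 lies below 0 throughout, the SNHG12 skipping junction lies at 2.07, and none was called. The SNHG12 skipping junction met the read filter through S34F alone, and the lowest SNHG1 junction met it through wild type alone.

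The rule for naming junctions took 68 of the 281, and 26 of these had under 50 reads and lie at sparse sites, so they are given by this count. Among well-read annotated junctions, 59 had at least 100 reads, with introns of 78 to 9836 nt and a median of 370. Outside SNHG5, unannotated shares overlapped. They were 2.97% ± 0.60 in wild type against 2.69% ± 0.26 in S34F for SNHG12, where few reads were seen, and 0.941% ± 0.24 and 1.13% ± 0.12 for SNHG16 (SD, n = 3). They were lower in GAS5, at 0.606% ± 0.056 and 0.544% ± 0.022, in SNHG1, at 0.425% ± 0.13 and 0.300% ± 0.062, and in ZFAS1, at 0.125% ± 0.056 and 0.085% ± 0.010.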

How the data were processed

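Splice junctions were counted in 6 poly(A)+ libraries sequenced as paired ends, 3 per genotype. The deposited tables have 9 columns in STAR's junction layout, and their values are raw counts of uniquely mapped and multi-mapped reads per junction. Alignment with STAR to hg19 is per the submitters' processing notes, while its version, annotation and filters are not given in the sources used here. The strand in these tables follows the intron motif. Sequences are from RefSeq.

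Tables were joined on position, and a missing junction was counted as 0. Acceptor and donor choice were tested with edgeR 4.0.16 (R 4.3.3; quasi-likelihood F-test, legacy dispersion, robust) on 2 counts per library, the junction and the others at its splice site, with an intercept per library. A site needed 20 reads in every library and 10 on each side over all 6. The coefficient is a log2 odds, and SE is the coefficient over the square root of F. Junction abundance used TMM and a mean of 10 reads. Benjamini-Hochberg adjustment ran over all junctions tested in each of the 3 classes. The tests were tried on simulated data with a fixed dispersion and large planted changes. That trial does not show how they perform on sparse or variable junctions such as those here. DESeq2 1.42.0, limma 3.58.1, other filters, multi-mapped reads, overhang, scaling, a replicate block and leaving out libraries were alternatives. Reads carry no molecular identifiers, so they are not independent molecules.

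Members, lists and tests were chosen with earlier results of these data known. Named junctions were, per gene, those called, those that held at least 5% of a splice site where another did too (at most 12), the most-read one, and the 2 most-read unannotated ones. Genome sequence and annotation of hg19 were not used here, so other host genes, cell type markers and splice site sequences were not analysed here. Same-numbered replicates did not deviate together (r -0.188, -0.135 and 0.00963), so numbers were not taken as pairs. Across different numbers r ran from -0.134 to 0.229, highest for wild type replicate 1 with S34F replicate 2. In log2 levels over junctions these 2 libraries had r 0.935. Wild type replicate 1 had 0.927 and 0.924 with wild type replicates 2 and 3. The cause of this likeness across genotypes was not tested. Python 3.11.15 with pandas 2.3.3, numpy 2.4.6 and matplotlib 3.10.9 served for tables and figures.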

Additional observations from a re-analysis of the deposited data

Results flagged for a closer look

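Multi-mapped reads, which the comparisons left out, were a larger share of junction reads in every S34F library than in any wild type library in SNHG12 and in ZFAS1. The SNHG12 values were 3.01, 5.51 and 4.61% in wild type against 6.34, 5.92 and 7.31% in S34F, with means of 4.38% ± 1.27 and 6.52% ± 0.71 (SD, n = 3). The ZFAS1 values were 1.25, 1.15 and 1.15% in wild type against 1.54, 1.47 and 2.08% in S34F, with means of 1.18% ± 0.060 and 1.70% ± 0.33 (SD, n = 3). The differences were not tested. In the other 4 genes the multi-mapped shares of the genotypes overlapped. The shift was not particular to these 2 genes: over all junctions, too, every S34F library had a higher multi-mapped share than any wild type library. Multi-mapped spliced reads were 1955080, 1781724 and 1363916 in wild type against 1943239, 1588916 and 3056578 in S34F. SNHG12 had only 233 multi-mapped reads over all libraries, and ZFAS1 had 834.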

How the results depend on the processing

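The called SNHG12 junctions kept their direction under each alternative run. Of the 122 results for named or singled-out junctions, 48 turned sign in at least 1 alternative; none of these was called before or after the turn, and the largest of them was 0.52 on the log2 scale. By acceptor choice the 2 member calls became 0 with DESeq2, 0 with limma on log2 odds, 4 over annotated junctions only (the SNHG1 51 nt exon joined SNHG12), 1 with no low-count filter and 7 with no minimum difference, and leaving out each library gave 0 to 2. By donor choice the 1 call became 0 with DESeq2, limma, the newer dispersion estimate, no low-count filter or multi-mapped reads, and 4 with no minimum difference, and leaving out each library gave 0 to 1. Abundance calls went from 0 to 3 with DESeq2, 6 with no low-count filter and 1 with total spliced reads in place of TMM, and leaving out each library gave 0 to 1. RPM and unannotated shares per gene moved by less than 1 SD, pooled over the 2 groups, in the alternatives run. With 3 libraries per group, leaving 1 out cannot move the difference that far. Those runs could not have shown otherwise, and only the other alternatives bear on this. With the replicate block, a paired fit, the member calls were 2, 1 and 0, the same as without it; same-numbered samples share only a number. Over all junctions, the 1088 acceptor calls became 150 with DESeq2, 0 with limma, 682 with 50 reads per site, 494 without the filter, 1637 at 5 points and 77 to 1932 when a library was left out. The 451 donor calls became 185, 0, 298 and 210 under the first 4 of these and 4 to 1210. The 254 abundance calls became 1550 with DESeq2, 0 with limma, 152 over annotated junctions, 147 at a mean of 50 reads, 2907 without the filter, 431 with total reads, 58 with the replicate block and 0 to 667. The causes were not tested. Depth limits SNHG12 most, with 3808 reads over 6 libraries against 285581 in GAS5.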

Other observations

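In SNHG5, multi-mapped reads gathered at 1 acceptor. The junction chr6:86387907-86388120 had 45 unique reads in all and 2631 multi-mapped reads, 596, 324 and 331 in wild type against 317, 422 and 641 in S34F. The neighbouring junction chr6:86387907-86388411, with the same acceptor, had 622, 341 and 342 multi-mapped reads in wild type against 332, 438 and 661 in S34F, 2736 in all. The pairs of values lie close in each library. Over all SNHG5 junctions the multi-mapped share was 7.40% ± 0.40 in wild type against 6.61% ± 0.52 in S34F (SD, n = 3), the highest of the 6 genes, and it overlapped between genotypes.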
